A study of Mus musculus with 4 samples.

Results

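The claudin and connexin genes are the members of a pair of cell junction families that a mouse whole-genome oligonucleotide array measured in 4 bones. They were taken as every non-control probe whose gene name in the scanner files was Cldn or Gja to Gje followed by a number. This gave 49 probes of 41174, 23 for claudins and 26 for connexins, and the probes stood for 39 genes of 27594, 21 claudins and 18 connexins. The array carries old names, and 5 genes are given here under their present symbols, found through the accession of each probe in the RefSeq gene table, Gjc1, Gjc3, Gjd2 and Gjd3 among them.

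Total RNA came from maxilla and mandible, the jaw bones, and from ilium and femur, a bone of the trunk and a bone of the limb, all of male C57BL/6 mice aged 35 days. Each bone had 1 array, so each class of bones held 2 arrays, and the labels do not say how many mice gave the RNA of a bone. The series title sets jaw bones against trunk and limb bones, and the labels name no treatment of these bones and no selection of a cell type. Every p-value below rests on how far apart the 2 bones of a class lay, for the gene itself and in part for all genes tested. None measures the spread between animals.

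Claudins are membrane proteins with several membrane spans whose strands form the tight junction, the seal between neighbouring epithelial or endothelial cells; some tighten the seal and others form pores for chosen ions or water. Connexins assemble into rings of subunits in the membrane that dock with those of the next cell as gap junctions, through which ions and small metabolites pass. In bone, gap junctions link osteoblasts and osteocytes, whereas tight junction strands belong mostly to epithelia, vessels and myelin.

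Promoter sequence was printed for some of the genes on which the results turn and for which the RefSeq table held a window. Cldn3, Cldn4, Cldn7 and Gjb2 were far higher in the maxilla than in any other bone, Cldn12 was higher in both jaw bones and Cldn15 was lower in both. Each window is the 250 bases before the annotated start, from RefSeq on GRCm38.p6, written 5′ to 3′ on the strand of the gene, and capitals mark a GC box (GGGCGG), which Sp factors bind, or an E-box (CAGGTG) on either strand. Cldn7 has 2 windows and Cldn12 has 3, and the ones printed were picked because they hold a motif. The other window of Cldn7 and 1 of Cldn12 hold none. Every printed window holds a GC box, which is not so for all genes named below. The unprinted windows of Cldn2, Cldn11, Cldn22 and Gjb6 hold no GC box and no E-box. Cldn10, also unprinted, has a window with GC boxes and another without.
Cldn3, chr5:134985964-134986213, plus strand: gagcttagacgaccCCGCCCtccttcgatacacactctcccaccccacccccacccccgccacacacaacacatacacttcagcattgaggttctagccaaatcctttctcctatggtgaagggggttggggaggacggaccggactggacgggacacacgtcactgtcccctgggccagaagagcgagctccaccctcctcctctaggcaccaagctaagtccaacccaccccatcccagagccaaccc
Cldn4, chr5:134946935-134947184, minus strand: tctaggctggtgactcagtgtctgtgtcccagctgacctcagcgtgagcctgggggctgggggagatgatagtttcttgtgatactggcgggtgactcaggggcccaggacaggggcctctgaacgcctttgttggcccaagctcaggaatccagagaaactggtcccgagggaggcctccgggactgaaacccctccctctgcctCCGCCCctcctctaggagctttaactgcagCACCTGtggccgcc
Cldn7, chr11:69965171-69965420, plus strand: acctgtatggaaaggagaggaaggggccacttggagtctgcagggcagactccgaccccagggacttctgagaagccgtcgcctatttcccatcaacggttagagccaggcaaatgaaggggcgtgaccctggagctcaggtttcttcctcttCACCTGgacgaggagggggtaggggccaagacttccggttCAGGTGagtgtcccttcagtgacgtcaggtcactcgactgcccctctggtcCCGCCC
Gjb2, chr14:57104703-57104952, minus strand: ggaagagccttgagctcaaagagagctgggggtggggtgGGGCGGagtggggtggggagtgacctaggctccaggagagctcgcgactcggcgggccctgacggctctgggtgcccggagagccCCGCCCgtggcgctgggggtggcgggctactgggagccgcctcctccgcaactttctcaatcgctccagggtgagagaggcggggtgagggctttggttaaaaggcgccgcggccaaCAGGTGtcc
Cldn12, chr5:5514790-5515039, minus strand: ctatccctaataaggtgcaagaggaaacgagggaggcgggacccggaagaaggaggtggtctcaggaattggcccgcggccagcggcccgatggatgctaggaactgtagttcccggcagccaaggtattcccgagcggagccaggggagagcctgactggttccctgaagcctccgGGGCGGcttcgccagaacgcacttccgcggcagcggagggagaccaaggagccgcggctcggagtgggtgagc
Cldn15, chr5:136967619-136967868, plus strand: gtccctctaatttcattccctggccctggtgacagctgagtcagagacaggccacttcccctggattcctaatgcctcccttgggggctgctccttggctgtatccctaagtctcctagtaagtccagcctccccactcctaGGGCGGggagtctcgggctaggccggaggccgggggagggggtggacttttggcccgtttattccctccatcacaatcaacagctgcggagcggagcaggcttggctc

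Windows were held for 29 of the 39 member genes, 41 windows in all because some genes have several starts. Windows of the same gene can overlap, as for Cldn12 and Cldn19, so the same motif can be counted more than once. The motif shares that follow count both strands and overlapping matches. The GC box stood in 17 of the 41 member windows, against 32.7% of the 32851 windows of all genes. Those 17 windows belonged to 15 genes. The E-box, the core to which epithelial repressors of the Snail and Zeb families are known to bind, stood in 8 of the 41 member windows, against 17.2% of all windows. The TATA box (TATAAA) was in 5 of the 41 member windows and in 12.4% of all windows. The 8-base palindrome of the grainyhead-like factors (AACCGGTT) was in no member window, and 0.116% of all windows held it. These matches describe the letters of a window and give no evidence of binding.

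All 4 arrays lay on 1 slide and were scanned in 1 run. The 75th percentile of the processed signal, to which each array was scaled, was 809 in the maxilla and lay between 1140 and 1210 in the other 3 bones, and between 72.8% and 75.5% of the 43379 non-control spots were well above background. All 10 markers of osteoblasts and osteocytes were well above background in every bone. Markers of other tissues were present too: summed over 6 genes, skeletal muscle markers reached 94.1 and 541 multiples of the 75th percentile in maxilla and mandible, against 719 and 703 in ilium and femur. No array had a saturated spot.

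Levels below are log2 signals against the array's 75th percentile, so that 0 is a signal at that percentile and each step of 1 is a doubling. They compare bones within a gene and not genes with each other, since probes differ in brightness. A probe not well above background by the scanner's own call is named dim, and where a gene was dim in every bone of a class the fold is given as a bound.

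Of the 39 genes, 32 were well above background in at least 1 bone, 19 claudins and 13 connexins. In all 4 bones 20 were measured, 13 claudins and 7 connexins. The maxilla showed 27 of the genes above background, the mandible 28, the ilium 23 and the femur 26. Among the 7 genes that were dim in every bone were Cldn16, a magnesium pore of the kidney that is also known from enamel formation, Cldn18 of lung and stomach, the skin connexin Gjb5 and the neuronal connexin Gjd2. The heat map of members by bone shows the pattern described below.

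**Figure D1:**
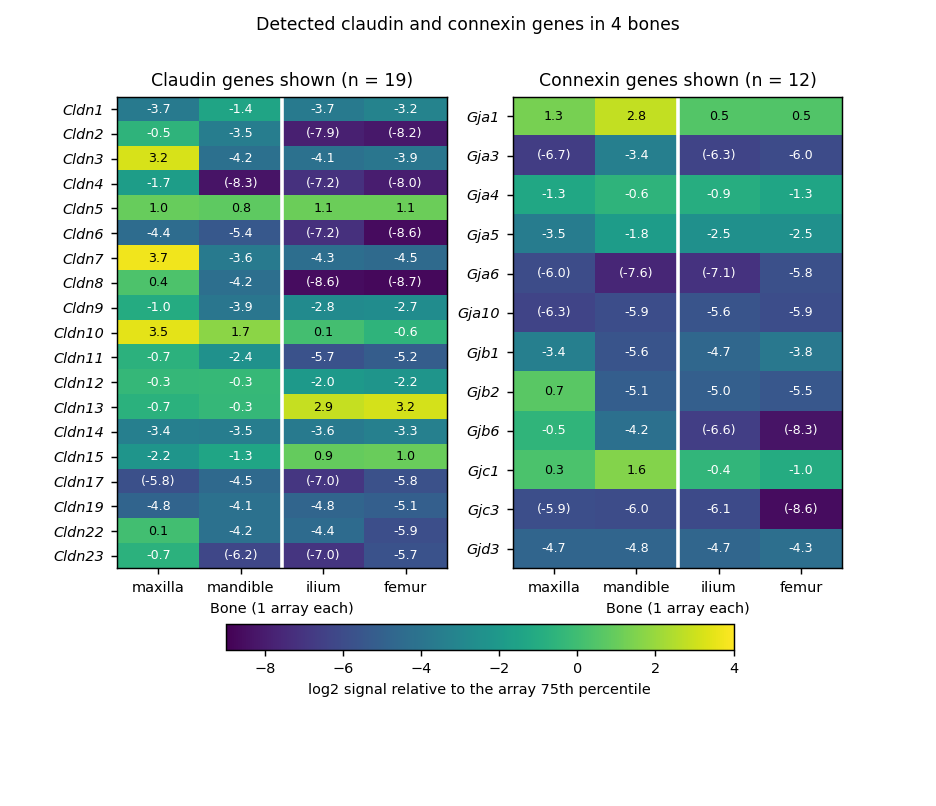
Log2 signal against the array's 75th percentile for detected member genes (rows) in maxilla, mandible, ilium and femur (columns), with 1 array per bone and parentheses where the probe was not well above background. Colours compare bones along a row only: Cldn3, Cldn7 and Gjb2 stand out in the maxilla, and Cldn13 and Cldn15 are brighter in ilium and femur.

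The 30 genes that 2 or more arrays measured above background entered the comparison of jaw with trunk and limb bones, 18 claudins and 12 connexins. By limma with Benjamini-Hochberg adjustment over all 20616 genes tested, 2 members, Cldn11 and Cldn12, were higher in the jaw bones, against a background of 4.51% of all genes. Another 2, Cldn13 and Cldn15, were lower in the jaw bones, against 7.25% of all genes. Together 4 of 30 were called where 11.8% of all genes were, a share near the background. Before adjustment, 10 of the 30 members and 7082 of all genes, or 34.4%, were under 0.05 by limma. No connexin was called. Cldn2, Cldn6, Cldn8 and Gjb6 entered the test through the jaw arrays alone, since both other bones were dim.

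The calls depended on which bones entered. Without the ilium or without the femur no member and no gene of the array was called, with smallest adjusted p-values of 0.235 and 0.356 by limma. Without the maxilla 13 members were called and without the mandible 17, all 4 named above among them, where 29.9% and 39.8% of all genes were called; in those fits the lone jaw bone is assumed to vary like the ilium and femur do between themselves.

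Cldn12, which lines epithelia of the gut and takes part in calcium uptake there, had levels of -0.33 in the maxilla and -0.28 in the mandible, against -2.00 in the ilium and -2.22 in the femur. The jaw bones lay close together and well apart from the other pair. The difference was 1.80 ± 0.21 (SE), a 3.48-fold higher signal in the jaw bones with a 95% interval of 1.22 to 2.39 on the log2 scale and an adjusted p of 0.0325 by limma. Its probe lies at chr5:5511508-5511567 on mm8, the build of the array's coordinates; no annotation of that build was used here, so exon or UTR positions are not given.

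Cldn11, which makes the tight junction strands of central myelin and of Sertoli cells, had levels of -0.66 in the maxilla and -2.40 in the mandible, against -5.73 in the ilium and -5.17 in the femur. Both jaw bones were above both other bones, and the maxilla was 3.35-fold above the mandible. The difference was 3.92 ± 0.70 (SE), 15.2-fold higher in the jaw bones, with an adjusted p of 0.0499 by limma, just inside the threshold of 0.05. The call was lost under normexp background correction (adjusted p = 0.0691), quantile normalization (0.0558) and no filter on background (0.0666). Markers of Schwann cells and peripheral nerve summed to 31.9 and 37.5 multiples of the 75th percentile in maxilla and mandible, against 17.3 and 16.2 in ilium and femur, with all 8 above background in every bone and 2 of 8 called higher in the jaw bones. The myelin genes Mbp and Mag ran the other way, lower in the jaw bones at unadjusted p-values of 0.0163 and 0.0287 by limma and not called (adjusted p = 0.0787 and 0.105). Their part in the Cldn11 difference was not tested. As in any whole tissue, fewer cells of a type and less RNA per cell cannot be told apart.

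Cldn13, a claudin reported in red cell precursors of the mouse, had levels of -0.70 in the maxilla and -0.35 in the mandible, against 2.85 in the ilium and 3.17 in the femur. Maxilla and mandible differed 1.28-fold, ilium and femur 1.25-fold, and the pairs did not overlap. The signal fell by 3.53 ± 0.26 (SE) on the log2 scale in the jaw bones, 11.6-fold in favour of ilium and femur, with an adjusted p of 0.0325 by limma. The erythroid markers moved with it: all 8 with a value were called lower in the jaw bones, their median difference was -3.48, and their summed level was 32.0 and 49.0 multiples of the 75th percentile in maxilla and mandible, against 274 and 306 in ilium and femur. Their part in the Cldn13 difference was not tested.

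Cldn15, a cation pore of the intestine, had levels of -2.22 in the maxilla and -1.34 in the mandible, against 0.91 in the ilium and 1.01 in the femur. Both values of the jaw bones lay below both others. The signal fell by 2.74 ± 0.38 (SE) on the log2 scale in the jaw bones, 6.68-fold in favour of ilium and femur, with an adjusted p of 0.0366 by limma. Without the filter on background the difference was the same and the adjusted p was 0.0517. The same erythroid sums stand beside Cldn15, and their part was not tested.

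**Figure D2:**
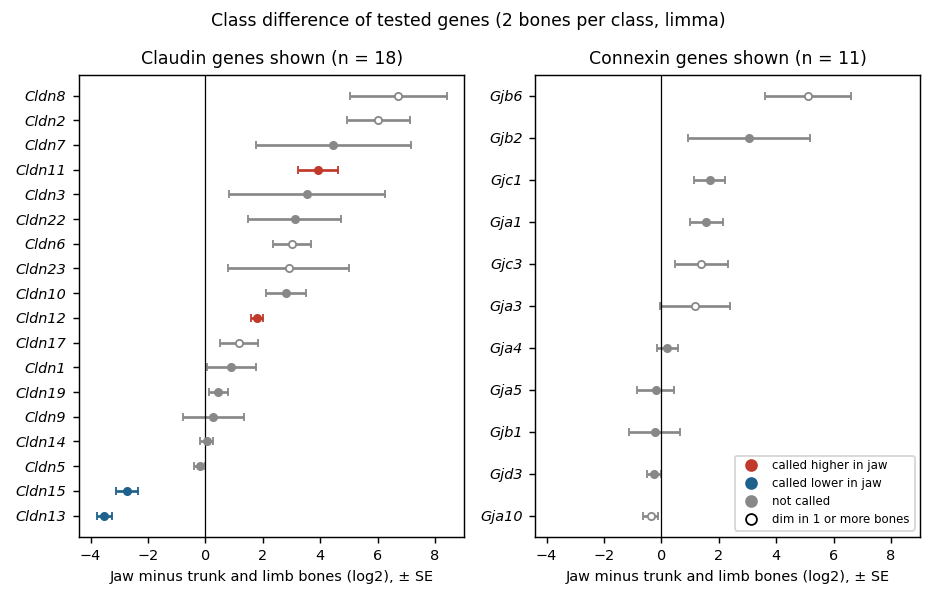
Difference in mean log2 signal, jaw bones minus ilium and femur, for member genes tested, with bars for the SE from limma (2 bones per class) and open points for genes dim in 1 or more bones. Cldn12 at 1.80 and Cldn11 at 3.92 were called higher in the jaw bones and Cldn15 at -2.74 and Cldn13 at -3.53 lower, while the larger difference of Cldn7, at 4.45, carried a wider error and open points such as Cldn8 rest on values below background in ilium and femur.

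By size rather than by test, 7 members had a lower jaw value at least 1 log2 unit above the higher value of ilium and femur, against 9.34% of all genes tested. These were Cldn2, Cldn6, Cldn8, Cldn10, Cldn11, Cldn12 and Gjb6. The reverse held for 2, Cldn13 and Cldn15, against 9.82% of all genes. The classes did not overlap for 18 of the 30, with the jaw bones higher in 12 and lower in 6, against 68.2% of all genes tested. The 4 genes that entered through the jaw arrays had to lie in that direction.

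The claudins tested had a median difference of 2.31 and the connexins 0.68, against -0.03 for all genes tested. Over all 21 claudins and all 18 connexins with a value, dim ones included, the medians were 1.80 and 0.28. Over the 13 claudins and 7 connexins above background on all 4 arrays, which leaves out the genes that entered through the jaw arrays, they were 0.90 and 0.20. A positive difference was seen for 15 of the 18 claudins tested and 7 of the 12 connexins. Leaving out the maxilla lowered the claudin median to 0.89, and normexp correction gave 1.15. With arrays centred on their medians the claudin and connexin medians were 2.05 and 0.43, beside an all-gene median of -0.28.

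Cldn10, an ion pore of kidney and of salivary and sweat glands, had levels of 3.45 in the maxilla and 1.74 in the mandible, against 0.12 in the ilium and -0.55 in the femur. Its signal was graded, with the maxilla highest and the femur lowest and no overlap of the classes. The difference of 2.81 ± 0.70 (SE) did not pass the test (adjusted p = 0.0823 by limma).

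Cldn2, a cation and water pore of leaky epithelia, had levels of -0.53 in the maxilla and -3.47 in the mandible and was dim in ilium and femur. Cldn8, which tightens the distal tubule of the kidney, had levels of 0.37 in the maxilla and -4.24 in the mandible and was likewise dim in both other bones. Both genes were measured in the jaw bones alone. Against the limit of detection, Cldn2 was at least 22.5-fold and Cldn8 at least 23.6-fold higher in the jaw bones. The adjusted p-values of 0.0514 and 0.0847 by limma are for the measured differences of 6.02 and 6.72, which use the dim values. With arrays centred on their medians Cldn2 was called.

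Cldn6, a claudin of embryonic epithelia, showed the same layout at lower signal, with levels of -4.40 in the maxilla and -5.42 in the mandible and dim probes in the other pair. Its jaw signal was at least 3.00-fold higher. The adjusted p of 0.0682 by limma is for the measured difference of 3.02, dim values included. Gjb6, a connexin of the inner ear and the skin, had levels of -0.47 in the maxilla and -4.20 in the mandible and was dim in ilium and femur. For Gjb6 the classes lay at least 17.9-fold apart, and its measured difference of 5.10, dim values included, had an adjusted p of 0.11 by limma. Its other probe had the same order of bones but a smaller bound, at least 5.88-fold. At that probe the mandible, at -5.94, lay less than 1 log2 unit above the dim ilium value of -6.78.

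Maxilla and mandible differed from each other in many members. With 1 array each, this comparison has no test, and a gene counted when its measured signals differed 4-fold or more and the brighter was above background. Of the 31 members that could be compared, 12 were higher in the maxilla, against 8.95% of the 21084 genes compared, a larger share of the members than of all genes. They included Cldn2, Cldn3, Cldn4, Cldn7, Cldn8, Cldn9, Cldn22, Cldn23, Gjb1, Gjb2 and Gjb6. Cldn1 and Gja3 were lower in the maxilla, 2 genes against 2.5% of all genes compared.

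Of those 12, 9 stood 4-fold or more above each of the other 3 bones in the maxilla: Cldn2, Cldn3, Cldn4, Cldn7, Cldn8, Cldn22, Cldn23, Gjb2 and Gjb6. That is 9 of the 32 members above background in any bone, against 6.66% of 22240 genes. The mandible alone was so for 1 member, Gja3, against 1.03% of genes. The ilium and the femur were so for 0 members each, against 0.184% and 0.0674% of genes. This rule on a single bone was chosen after the values were seen.

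**Figure D3:**
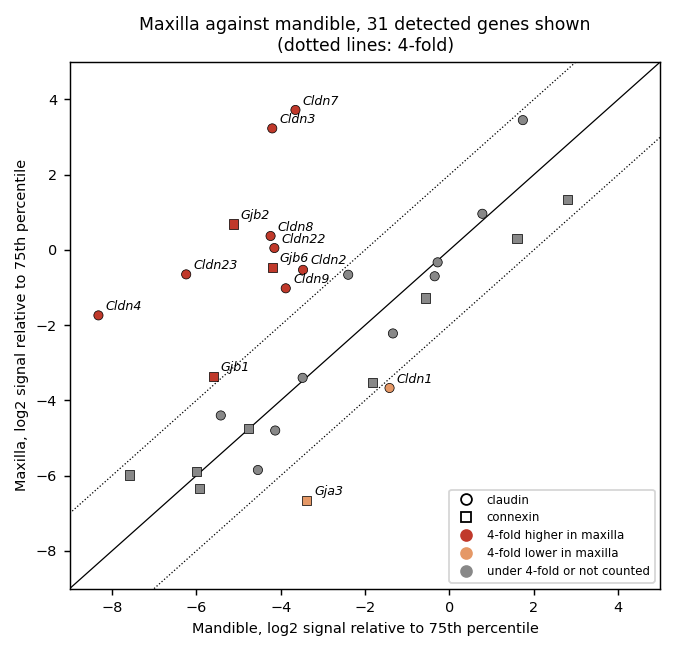
Log2 signal of 31 detected members in the mandible (horizontal) and the maxilla (vertical), 1 array per bone, with lines at equality and at a 4-fold difference. Cldn3 and Cldn7 lie farthest above the lines, at 3.23 and 3.72 in the maxilla against -4.20 and -3.65 in the mandible, and Cldn1 and Gja3 lie below them.

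Cldn3, a barrier claudin of glandular epithelia, had levels of 3.23 in the maxilla, -4.20 in the mandible, -4.14 in ilium and -3.90 in femur. The maxilla stood 140-fold above the femur, the next bone, while the other 3 bones lay together. Cldn7, which lies along the sides of simple epithelial cells, had levels of 3.72, -3.65, -4.30 and -4.53 in the same order of bones. The maxilla was 166-fold above the mandible, the next bone.

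Since the mandible resembled ilium and femur for both genes, the jaw difference carried a wide error, 3.53 ± 2.72 (SE) for Cldn3 and 4.45 ± 2.70 for Cldn7 (adjusted p = 0.419 and 0.322 by limma). Leaving out the maxilla turned the sign for Cldn3, to -0.18. Cldn4, a barrier claudin that is often found with Cldn3, was at -1.74 in the maxilla and dim in the other 3 bones. Its maxilla signal was at least 25.2-fold above that of the mandible, and it was not tested because only 1 array measured it.

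Cldn22, whose role is less settled, had levels of 0.05 in the maxilla, -4.15 in the mandible, -4.43 in ilium and -5.88 in femur. Cldn23, likewise less studied, was at -0.65 in the maxilla and -5.73 in the femur and dim in mandible and ilium. The maxilla again stood alone, 18.4-fold above the next bone for Cldn22 and 33.8-fold for Cldn23. Cldn9, a claudin of the inner ear, had levels of -1.02 in the maxilla, -3.88 in the mandible, -2.79 in ilium and -2.66 in femur. Its gap to the next bone was 3.13-fold, under the 4-fold mark.

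Among the beta connexins, Gjb2, the connexin of the cochlea and of many secretory epithelia, had levels of 0.69 in the maxilla, -5.12 in the mandible, -5.04 in ilium and -5.48 in femur. The maxilla was 53.0-fold above the ilium, the next bone, and the remaining bones lay together. The jaw difference was 3.04 ± 2.13 (SE, adjusted p = 0.381 by limma). A dimmer probe of Gjb2 was above background in the maxilla alone, at -4.58.

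Gjb1, the connexin of liver and of Schwann cell myelin, had levels of -3.37 in the maxilla and -5.60 in the mandible, against -4.68 in the ilium and -3.80 in the femur. The classes overlapped, since the maxilla was highest and the mandible lowest.

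Markers of simple and secretory epithelium had the same layout as the 9 members of the maxilla. All 10 of them were 4-fold or more above each other bone there, and their summed level was 643 multiples of the 75th percentile in the maxilla, 4.80 in the mandible, 1.43 in ilium and 0.943 in femur. Olfactory neuron markers summed to 9.62 in the maxilla, 0.912 in the mandible, 0.516 in ilium and 0.350 in femur, with 4 of 6 in the maxilla alone. Stratified epithelium markers summed to 105 and 127 in maxilla and mandible, against 4.75 and 5.04 in ilium and femur. Sfn was nearly flat, at 2.62, 2.55, 2.00 and 2.06 in the same order of bones, and made up most of the ilium and femur sums. Of the 10 markers tested, 7 were called higher in the jaw bones, and Dsc3 was dim in every bone. Krt15, Krt6a and Epcam of that list, 3 of 12, stood alone in the maxilla. Of 42 keratin genes, 14 stood alone in the maxilla. The part of any of these cell types in the claudin and connexin values was not tested.

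On the other side, Cldn1, the barrier claudin of the epidermis, which is also known from enamel-forming cells, had levels of -3.67 in the maxilla and -1.42 in the mandible, against -3.70 in the ilium and -3.20 in the femur. The mandible was the high bone and the maxilla lay with the other pair. Its difference of 0.90 ± 0.86 (SE) did not pass the test (adjusted p = 0.506 by limma). The second probe gave -0.32 for the class difference, the other sign, although it too was more than 4-fold lower in the maxilla than in the mandible. At that probe the maxilla was the lowest bone, at -4.83. The mandible, at -2.66, was 1.55-fold above the femur, the next bone.

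Gja3, a connexin of the lens, was at -3.38 in the mandible and -6.02 in the femur and dim in maxilla and ilium, and it was the member that stood alone in the mandible, at least 6.24-fold above the maxilla. Its 2 other probes were near or below the detection limit in all 4 bones and did not show the difference. Ameloblast and enamel markers summed to 85.6 multiples of the 75th percentile in the maxilla and 211 in the mandible, against 0.311 in the ilium and 0.189 in the femur, and 4 of the 7 stood alone in the mandible and 1, Odam, in the maxilla. Their part in the Cldn1 and Gja3 values was not tested. Normexp correction left neither gene with a 4-fold difference.

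Ilium and femur were close for nearly every member. Of 27 members that could be compared, 1 was 4-fold or more higher in the ilium, against 0.684% of 20894 genes, and 0 were lower, against 0.302%. The exception was Gjc3, a connexin of Schwann cells in the mouse, at -6.08 in the ilium and dim in the femur, with -5.99 in the mandible and a dim probe in the maxilla. Set against the detection limit of the femur array, its ilium signal was at least 1.36-fold higher, so the 4-fold difference rests on a value below background.

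The connexins of bone cells were measured in all 4 bones. Gja1, the main gap junction protein of osteoblasts and osteocytes, had levels of 1.33 in the maxilla and 2.79 in the mandible, against 0.54 in the ilium and 0.45 in the femur. The mandible was highest, the maxilla next, and the ilium and femur lay together below both. The difference was 1.56 ± 0.57 (SE), 2.96-fold higher in the jaw bones, and did not pass the test (adjusted p = 0.153 by limma).

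The array printed the Gja1 probe 10 times, which shows the technical error within an array. The spots ran from 1.21 to 1.45 in the maxilla and from 2.69 to 2.94 in the mandible, against 0.45 to 0.69 in the ilium and 0.33 to 0.56 in the femur. Spots of maxilla, mandible and the other pair did not overlap, whereas ilium and femur spots did. Between spots the SD was 0.075 in the maxilla and 0.083 in the mandible, against 0.079 in the ilium and 0.071 in the femur. This spread is of 1 hybridised sample and says nothing on animals.

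Gjc1, a second connexin of osteoblasts that makes smaller channels, had levels of 0.30 in the maxilla and 1.60 in the mandible, against -0.44 in the ilium and -1.02 in the femur. Its order of bones was that of Gja1, with the mandible highest and the femur lowest. The difference was 1.68 ± 0.55 (SE), 3.21-fold higher in the jaw bones (adjusted p = 0.129 by limma), and the second probe gave 1.64. Osteoblast and osteocyte markers summed to 416 and 437 multiples of the 75th percentile in maxilla and mandible, against 331 and 278 in ilium and femur. Bglap and Col1a1 made up most of that sum. The differences of single markers ran from 0.22 for Col1a1 to 1.71 for Phex, with a median of 0.82. Of the 10 markers, 3 were under an unadjusted p of 0.05 by limma, against 34.4% of all genes, and none was called. Their part in the connexin values was not tested.

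**Figure D4:**
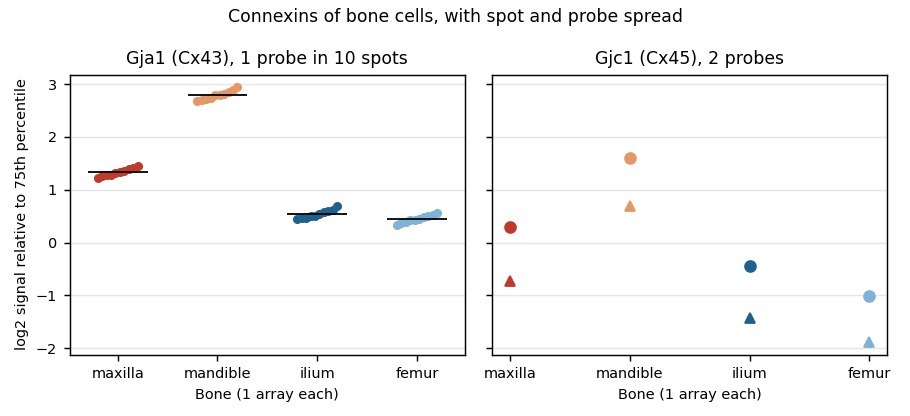
Log2 signal against the array's 75th percentile for the 10 replicate spots of the Gja1 probe and for both probes of Gjc1 in maxilla, mandible, ilium and femur, 1 array per bone. Mandible spots of Gja1 lie between 2.69 and 2.94, above every spot of the other bones, and both Gjc1 probes have the mandible highest.

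Vascular members had no call. Cldn5, the tight junction claudin of endothelium, had levels of 0.96 in the maxilla and 0.78 in the mandible, against 1.06 in the ilium and 1.08 in the femur. All 4 bones lay close together, and the difference was -0.20 ± 0.20 (SE, adjusted p = 0.528 by limma) with a 95% interval of -0.77 to 0.37. Gja4, an endothelial connexin of arteries, lay between -1.34 and -0.56 over the bones, with a difference of 0.20 ± 0.36 (SE, adjusted p = 0.725 by limma). Gja5, the other arterial connexin, which also serves the atrium and conduction system of the heart, was at -3.52 in the maxilla and -1.83 in the mandible, with -2.47 in both ilium and femur. The classes overlapped, with the jaw bones on either side of the other pair, and leaving out the mandible or the maxilla gave differences of -1.05 and 0.64. Other Gja5 probes did not repeat this order. A dimmer probe, above background in every bone, had the maxilla highest at -4.18 and the mandible lowest at -4.94. Another lay between -3.77 and -3.19, and the last was dim in every bone. Blood vessel markers summed to 10.2 and 17.8 multiples of the 75th percentile in maxilla and mandible, against 14.6 and 12.4 in ilium and femur, and none of the 8 was called.

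The remaining members were near the lower end of detection or flat. Cldn19, a claudin of kidney and of peripheral myelin, ranged from -5.08 to -4.13 over the bones with a difference of 0.45 ± 0.33 (SE, adjusted p = 0.400 by limma). Cldn14, a barrier claudin of the cochlea, ranged from -3.65 to -3.33, and its difference of 0.04 ± 0.22 changed sign under 6 of 12 alternative settings. Cldn17, an anion pore of the kidney, was above background in mandible and femur only. Gjd3, known from the conduction system of the mouse heart, ranged from -4.76 to -4.27, and Gja10, a connexin of retinal horizontal cells, was dim in the maxilla and lay between -5.93 and -5.63 in the other bones. Gja6, a testis connexin of the mouse, was above background in the femur only, at -5.81.

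Several members are neighbours on a chromosome, and the array's mm8 coordinates give the gaps between their probes. On chromosome 5, the probes of Cldn13, Cldn4 and Cldn3 follow each other with gaps of 30.6 kb and 41.8 kb. Their levels ran in different directions: Cldn13 was lower in both jaw bones than in ilium and femur, while Cldn4 and Cldn3 were high in the maxilla alone. On chromosome 14, Gja3, Gjb2 and Gjb6 lie within gaps of 64.0 kb and 24.5 kb. The Gja3 probe used was high in the mandible where the other pair was high in the maxilla, though the other Gja3 probes did not show this. On chromosome 16, Cldn17 and Cldn8 are 54.7 kb apart, and Cldn8 alone of them stood out in the maxilla. Cldn6 and Cldn9 on chromosome 17 are 1.08 kb apart.

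**Figure D5:**
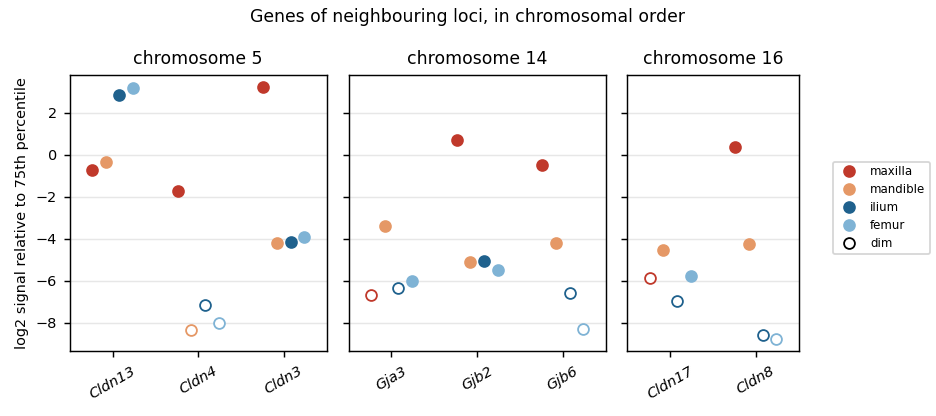
Log2 signal against the array's 75th percentile for neighbouring members on chromosomes 5, 14 and 16 in maxilla, mandible, ilium and femur, 1 array per bone, with open points where the probe was dim. Cldn13 lies at 2.85 and 3.17 in ilium and femur beside Cldn4 and Cldn3, which peak in the maxilla. The Gja3 probe used, unlike the other Gja3 probes, peaks in the mandible beside Gjb2 and Gjb6.

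Proteins that work with claudins were read from a list of 25 tight junction genes. All 25 were above background in at least 1 bone, 24 were tested, and 8 were higher in the jaw bones and 0 lower, against 4.51% and 7.25% of all genes. Their median difference was 1.79, and 16 of the 24 were under an unadjusted p of 0.05, against 34.4% of all genes. Ocln, Marveld3, Ildr1 and Crb3 were dim in ilium and femur and entered the test through the jaw arrays alone, so a difference in that direction was fixed for them. The calls included the strand protein Ocln, the tricellular receptor Lsr, the scaffolds Tjp1, Magi1 and Patj, the polarity protein Pard3 and the adhesion receptor Cxadr. Ocln had levels of -1.85 in the maxilla and -4.25 in the mandible and was dim in ilium and femur. Its signal was at least 10.9-fold higher in the jaw bones. The adjusted p of 0.0482 by limma is for the measured difference of 5.18, which uses the dim values.

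Lsr, which brings tricellular contacts together, had levels of 3.78 in the maxilla and 2.63 in the mandible, against -0.67 in the ilium and -0.71 in the femur. The classes were far apart, with a difference of 3.89 ± 0.46 (SE, adjusted p = 0.0333 by limma). Tjp1, the scaffold that ties claudins to actin, had levels of -0.07 and 0.35 in maxilla and mandible, against -1.34 and -1.74 in ilium and femur, a difference of 1.68 ± 0.28 (SE, adjusted p = 0.0468 by limma). Unlike Cldn3 and Cldn7, both were high in the mandible as well as in the maxilla. Ocln, Marveld2, Marveld3, Tjp3, Cgn, Ildr1, Pard6b and Crb3, 8 of the 25, stood 4-fold or more above each other bone in the maxilla, against 6.66% of all genes. Cgnl1, F11r, Jam3, Ildr2 and Magi2 had both jaw values at least 1 log2 unit above ilium and femur without a call.

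Desmosome genes, a set of 13 for another junction of epithelia, had 6 called higher in the jaw bones and 0 lower of 9 tested, against 4.51% and 7.25% of all genes. Those were the cadherins Dsg1a and Dsg2, the plakin Dsp and the plakophilins Pkp1, Pkp3 and Pkp4, while Dsc2 and Jup were past 1 log2 unit without a call. Dsg1a and Dsg2, counted among the 6, were dim in ilium and femur and entered through the jaw arrays alone, so a difference in that direction was fixed for them. Of 8 pannexin and connexin partner genes, 7 had a value and 1, the tubulin Tuba1a, was called higher, with a difference of 2.24 ± 0.30 (SE, adjusted p = 0.0358 by limma). Panx3, the pannexin of osteoblasts and of cartilage, had levels of -0.48 in the maxilla and -0.64 in the mandible, against -1.38 in the ilium and -5.42 in the femur. The femur was the low bone. Cartilage markers summed to 6.84 and 8.74 multiples of the 75th percentile in maxilla and mandible, against 36.8 and 5.36 in ilium and femur. Their part in the Panx3 value was not tested. Panx1, the widespread pannexin, stayed between 1.90 and 2.81 over the 4 bones.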

How the data were processed

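RNA of each bone was labelled with Cy3 and read on a 1-colour array, and the submitters' processing notes name Agilent Feature Extraction, version 9.5.3.1, for the scanner tables. Per the file headers, the deposited intensity is the processed signal, background-subtracted by that software, 1 value per spot. Intensities were log2 transformed after division by each array's 75th percentile. Control spots and spots with an outlier flag were left out (42 to 65 per array, none of a member), and spots of a probe were averaged. The gene took its probe with the highest mean, and names came from RefSeq by accession for 24375 probes, otherwise by symbol or the file's own name. Genes that at least 2 of 4 arrays measured well above background were tested with limma 3.58.1 in R 4.3.3 (lmFit, eBayes, 2 residual degrees of freedom), jaw against trunk and limb bones, Benjamini-Hochberg threshold 0.05.

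The deposited series table holds log2 values whose scale and centring are not given in the sources used here. Set against the scanner intensities, they matched the log2 ratio to the ilium plus a constant per array within 0.001 for 99.8% of probes or more. The column medians were -0.218 for the maxilla, -0.133 for the mandible, 0 for the ilium and 0.0233 for the femur. That table served as an alternative.

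The genes named are every member called, past 1 log2 unit between classes or past 4-fold between bones of a class, and members with known roles in bone, vessel, nerve, blood or tooth. Partner genes are named when called or when past the same size, and a few of both are counted but not reported here by name. Members, gene lists and tests were chosen with earlier results of these data known. The fit was tested on simulated data. The number of arrays limits the precision.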

Additional observations from a re-analysis of the deposited data

How the results depend on the processing

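Members called numbered 2 higher and 2 lower in the jaw bones. Cldn2 was added, for 3 higher calls, with median centring on all genes or on the genes tested. The same held with the deposited series table and with each probe as its own feature. Higher calls were 1 under normexp correction, quantile normalization and no filter on background, and 0 to 14 with each bone left out in turn; lower calls were 1 with no filter and 0 to 4 with a bone left out. Over all genes, 929 higher calls became 593 with quantile normalization, 603 with median centring, 575 with the deposited series table, 396 with no filter, 1534 with each probe as its own feature and 0 to 4045 with a bone left out. The 1494 lower calls became 724 with no filter, 2455 with each probe and 0 to 4159 with a bone left out. Calls higher in the jaw bones were 38.3% of all calls, against 26.8% with median centring and 27.2% with the series table. Partner calls, 9 higher and 0 lower, became 5 higher with median centring and with the series table, 3 with no filter, 21 with each probe, and 0 to 22 higher and 0 to 2 lower with a bone left out. The claudin median of 2.31 was 1.15 with normexp, 0.90 over genes above background on all 4 arrays and 0.89 to 2.65 with a bone left out, and the connexin median of 0.68 ranged from 0.17 to 0.73. With normexp, members lower in the maxilla than in the mandible were 0 in place of 2 and members higher in the ilium than in the femur 0 in place of 1, and 0 with the detection bound. Normexp adds an offset of 50 and so shrinks differences at low signal.

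Among single members the sign turned for Cldn14 under the series table (-0.21), under centring on all medians (-0.21) or on the genes tested (-0.13, a setting chosen after the data were seen), and under quantile normalization (-0.24), for Gja4 with median centring or the series table (-0.05 in each), and with normexp for Gjb1 (0.04) and Gja10 (0.13). Leaving out a bone turned it for others. Without the maxilla this was so for Cldn3, Cldn9, Cldn14 (0.00) and Gja5, without the mandible for Cldn1, Gja3, Gja4 and Gjb1, without the ilium for Cldn14, and without the femur for Gja4 (-0.01) and Gjb1 (0.19). With each bone left out in turn the difference ran from -0.22 to 2.03 for Cldn1, -0.18 to 7.25 for Cldn3, -1.15 to 1.71 for Cldn9, -0.12 to 0.21 for Cldn14, -0.48 to 2.80 for Gja3, -0.16 to 0.56 for Gja4, -1.05 to 0.64 for Gja5 and -1.36 to 0.87 for Gjb1. The cause of these turns was not tested. Of the other values for single members, 295 kept their direction and side of the threshold, 24 newly passed it and 12 no longer did. Cldn12 and Cldn13 passed under 10 of 12 alternatives and Cldn15 under 9, while Cldn11 passed under fewer. No paired analysis was possible because each bone has 1 array. Signal at the lower limit, where 7 genes were dim in every bone, leaves their differences not detectable here.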
